A study of Mus musculus with 30 samples.

Results

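The Serpina cluster of mouse chromosome 12 was taken as all transposon integration sites in chr12:103500001-104600000 of GRCm39, a stretch of 1.1 Mb. It held 1885 of the 2181704 nuclear sites mapped in 30 livers. Of these, piggyBac (PB) made 1131 and Sleeping Beauty (SB) made 754. The members were chosen by position alone. Whether the interval covers every gene of the cluster in GRCm39 was not checked, because gene positions of that build were not used here.

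The livers came from mice with a knockout of Fah, whose hepatocytes lack fumarylacetoacetate hydrolase as in tyrosinemia type I. All animals had received transposon gene therapy in vivo, 17 with the PB and 13 with the SB vector system, and liver DNA was collected when each monitoring period ended. The labels give the group and a liver number only, so the vector's content, dose, age, sex and length of monitoring are not given in the sources used here, and no untreated liver is among the samples. Sites were mapped by streptavidin-based enrichment sequencing, in which fragments that join the transposon end to mouse DNA are amplified and pulled out with a biotinylated primer. A site is 1 chromosome position and strand in 1 liver, and each carries a whole number of at least 3, called its support here and taken as the reads behind it.

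PB inserts into TTAA and SB into TA, and both leave a copy of that short target on each side of the insert. The serpins of this cluster are largely secreted proteins of the liver that inhibit proteases or carry hormones. Serpina1 genes encode alpha-1-antitrypsin, the main plasma inhibitor of neutrophil elastase, and Serpina3 genes are counterparts of human alpha-1-antichymotrypsin. Serpina6 encodes corticosteroid-binding globulin, Serpina10 the protein Z-dependent protease inhibitor of coagulation, and Serpina12 the adipokine vaspin. The mouse carries several copies of Serpina1 and Serpina3 where humans have a single gene of each, which gives the cluster stretches of near-identical sequence.

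In RefSeq's annotation of GRCm38.p6, used for names and order alone, 28 Serpina genes follow each other on chromosome 12 in a run of 41 genes of any name. Of the 28, 23 were protein-coding and 5 were pseudogenes. The run opens with Serpina10, Serpina6 and Serpina16, continues with 6 lettered Serpina1 genes (Serpina1f, 1b, 1d, 1a, 1c and 1e), passes through Serpina11, Serpina9, Serpina12, Serpina4-ps1 and Serpina5, and closes with 14 lettered Serpina3 genes, 10 of them protein-coding. Which gene lies in which window of the GRCm39 sites was not analysed here.

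The promoters show how alike the Serpina1 copies are and where they hold PB's target. RefSeq promoters of 300 bases, 250 before and 50 after a start, were matched by symbol for 18 of the 28 genes. Of their 20 promoters, 14 held at least 1 TTAA, 5 of which are the near-identical Serpina1 copies, against 52.4% of the 32851 promoters in the table. Those of Serpina1f, Serpina3a, Serpina3i, Serpina3j and Serpina16 held none. Over 10 pairs among Serpina1a to Serpina1e, the promoters were 91.4 to 97.6% identical, with a median of 94.0%. The stretches printed here, from the minus strand of GRCm38.p6, lie before each of the 5 starts, and capitals mark the TTAA that all of them hold.
Serpina1a: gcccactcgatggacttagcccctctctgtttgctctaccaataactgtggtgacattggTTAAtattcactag
Serpina1b: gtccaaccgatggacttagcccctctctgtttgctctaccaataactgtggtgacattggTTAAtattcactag
Serpina1c: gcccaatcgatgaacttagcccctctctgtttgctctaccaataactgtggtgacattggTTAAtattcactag
Serpina1d: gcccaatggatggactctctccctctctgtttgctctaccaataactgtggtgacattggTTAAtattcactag
Serpina1e: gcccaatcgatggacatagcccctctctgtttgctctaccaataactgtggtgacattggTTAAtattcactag
An identical run of 59 bases holds this TTAA in all 5 copies and was found on either strand in 5 of the 32851 promoters, or 0.0152%. The first base of the TTAA lay 15 to 26 bases before the start in Serpina1a to Serpina1d and 77 bases before it in Serpina1e. A read that covers only such a run fits several places, and how the authors treated reads with several places is not given in the sources used here.

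Per liver, 16364 to 124238 PB sites (median 71303) and 4893 to 120219 SB sites (median 80254) were listed in the whole genome. The cluster held 17 to 119 of them in a PB liver (median 67) and 0 to 111 in an SB liver (median 57). SB liver 13 stood apart with 4893 sites, and PB livers 13 to 17 were all shallower, at 16364 to 40598 sites, than PB livers 1 to 12, at 66528 to 124238. Shares are given per 10000 sites of the same liver, so that livers of different depth can be set side by side. No label says how the animals were handled, and p-values measure the spread between these livers only.

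Both transposons used the cluster more than most of the genome. In PB livers the cluster took between 6.87 and 11.9 of every 10000 sites, with a mean of 9.46 ± 1.66 (SD, n = 17). In SB livers the range was 0 to 11.2, with a mean of 7.46 ± 2.72 (SD, n = 13), or 8.08 ± 1.61 (n = 12) over livers 1 to 12. Among 2358 tiles of the same length the cluster ranked 126 in PB and 157 in SB, at 2.60 and 1.87 times the median tile. The groups overlapped, with the lowest PB liver at 6.87 and the median SB liver at 7.97.

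PB sites were 1.16-fold more frequent in the cluster than SB sites in edgeR's quasi-likelihood test over all tiles (log2 0.21, SE 0.08, adjusted p = 0.021). Of all tiles, 19.9% were called higher in PB and 39.3% higher in SB by the same rule, and 19.3% had a log2 difference above that of the cluster. The median tile stood at -0.15, and with TMM scaling the cluster stood at 0.30 and the median tile at -0.06. On the mean log2 share per liver, with 0.5 added to each count, the difference was 1.38-fold (log2 0.46, two-sided permutation test, p = 0.015, adjusted over 11 tests to 0.041). Without SB liver 13 that value was 0.24 (adjusted p = 0.073), and without SB liver 8 the edgeR value was 0.16 (adjusted p = 0.081). In livers 1 to 12 alone, the edgeR value was 0.18 (adjusted p = 0.06) and the permutation value was 0.17 (adjusted p = 0.18). Neither group difference held its direction when positions that more than 1 liver of a group had were left out, called reused positions from here on, at -0.23 (edgeR, adjusted p = 0.11) and -0.05 (adjusted p = 0.92). That step ignored strand and took sites mostly from PB livers. On average, 58.7% of a PB liver's and 7.31% of an SB liver's cluster sites lay at such positions.

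The liver with no cluster site was SB liver 13. Its 0 of 4893 sites allow a share of up to 6.13 per 10000, a limit of 3 counts, for counting error only. The other SB livers lay at 5.06 to 11.2, and 11 of those 12 lay above the limit. It had 13 sites in the 2 Mb below the cluster, 4 of them in the 10 kb window at 103.35 Mb, and 2 sites in the 2 Mb above.

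The cluster stood above both of its flanks, and the flank below it, chr12:101500001-103500000, was denser than the flank above it, chr12:104600001-106600000. PB density was 8.60 ± 1.51 sites per Mb per 10000 in the cluster, 5.68 ± 0.90 in the flank below and 3.78 ± 0.72 in the flank above (SD, n = 17). For SB the same densities were 6.78 ± 2.47, 6.16 ± 2.25 and 3.52 ± 0.73 (SD, n = 13). The SB values of livers 1 to 12 alone were 7.34 ± 1.46 in the cluster and 5.57 ± 0.73 below it. The cluster exceeded the lower flank in 17 of 17 PB and 10 of 13 SB livers, and the upper flank in 17 of 17 and 12 of 13. The lower flank exceeded the upper one in 16 of 17 PB and 12 of 13 SB livers.

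**Figure D1:**
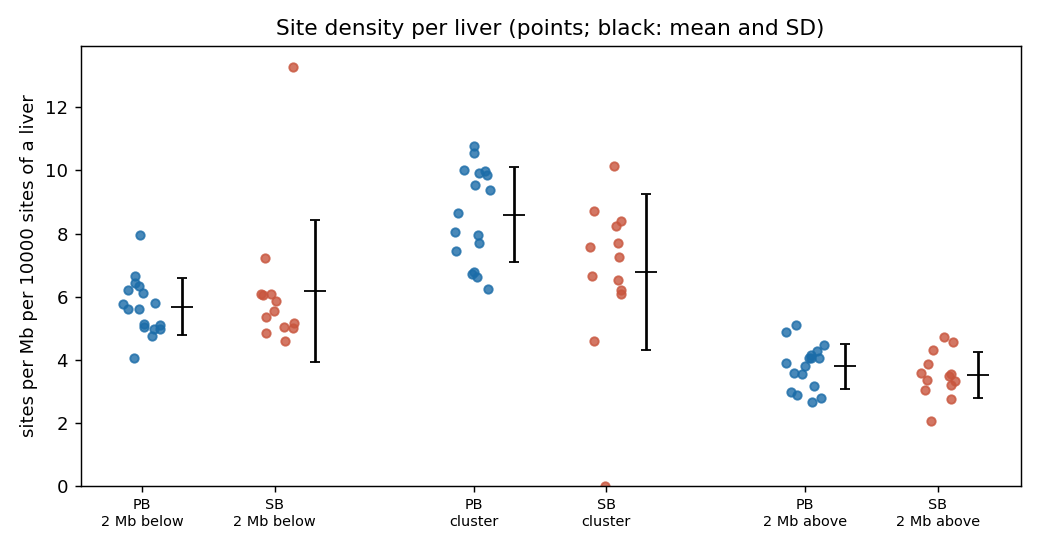
Site density in sites per Mb per 10000 sites of a liver (y axis) in the cluster and in the 2 Mb below and above it, for PB (blue) and SB (red); each point is 1 liver, and black marks show the mean and SD. PB livers centre on 8.60 in the cluster against 5.68 and 3.78 in the flanks, and SB liver 13 gives both the SB point at 0 in the cluster and the SB point at 13.3 below it.

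The ratio of cluster to flank density was 1.21 at its lowest, 1.95 at its median and 2.42 at its highest over PB livers. It was above 1 in 17 of 17 of them, a mean difference of 0.86 on the log2 scale or 1.81-fold (sign-flip permutation test, p = 4e-05, adjusted p = 0.00044). In SB livers the ratio ran from 0 to 2.18 with a median of 1.53, and it was above 1 in 12 of 13. The SB difference was 0.37 on the log2 scale (permutation test, p = 0.25, adjusted p = 0.31) with liver 13 and 0.66 (adjusted p = 0.0027) without it. SB livers 1 to 12 ran from 1.17 to 2.18. The PB ratio was 1.40-fold the SB ratio, which did not pass after adjustment (log2 0.49, permutation test, p = 0.045, adjusted p = 0.099). With flanks of 1 Mb each side this value was 0.66 (adjusted p = 0.037), and against the rest of chromosome 12 it was 0.53 (adjusted p = 0.011), while without SB liver 13 it was 0.20. The PB excess over the flanks was 0.41 on the log2 scale without reused positions.

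Along the cluster, as in both flanks, PB sites were gathered into fewer windows than SB sites. Of the 110 windows of 10 kb, the 10 with most sites took 41.1% of the PB and 20.4% of the SB sites, which describes the pooled sites the ranking used. Of the 200 windows of each flank, the top 10 took 24.2 and 12.2% in the lower flank and 44.6 and 14.5% in the upper flank. Ranked on the other livers of the group, the top 10 windows took 38.8 ± 9.7% of a PB liver's cluster sites (SD, n = 17) and 14.8 ± 6.0% of an SB liver's (SD, n = 12). Ranked on the livers of the other transposon, they took 17.4 ± 4.8% and 8.14 ± 4.41%. Over the 110 windows the mean PB and SB densities correlated at r = 0.16 and rho = 0.22. In the 400 flank windows the values were 0.27 and 0.45. Windows share libraries and base composition, and these values are descriptions.

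**Figure D2:**
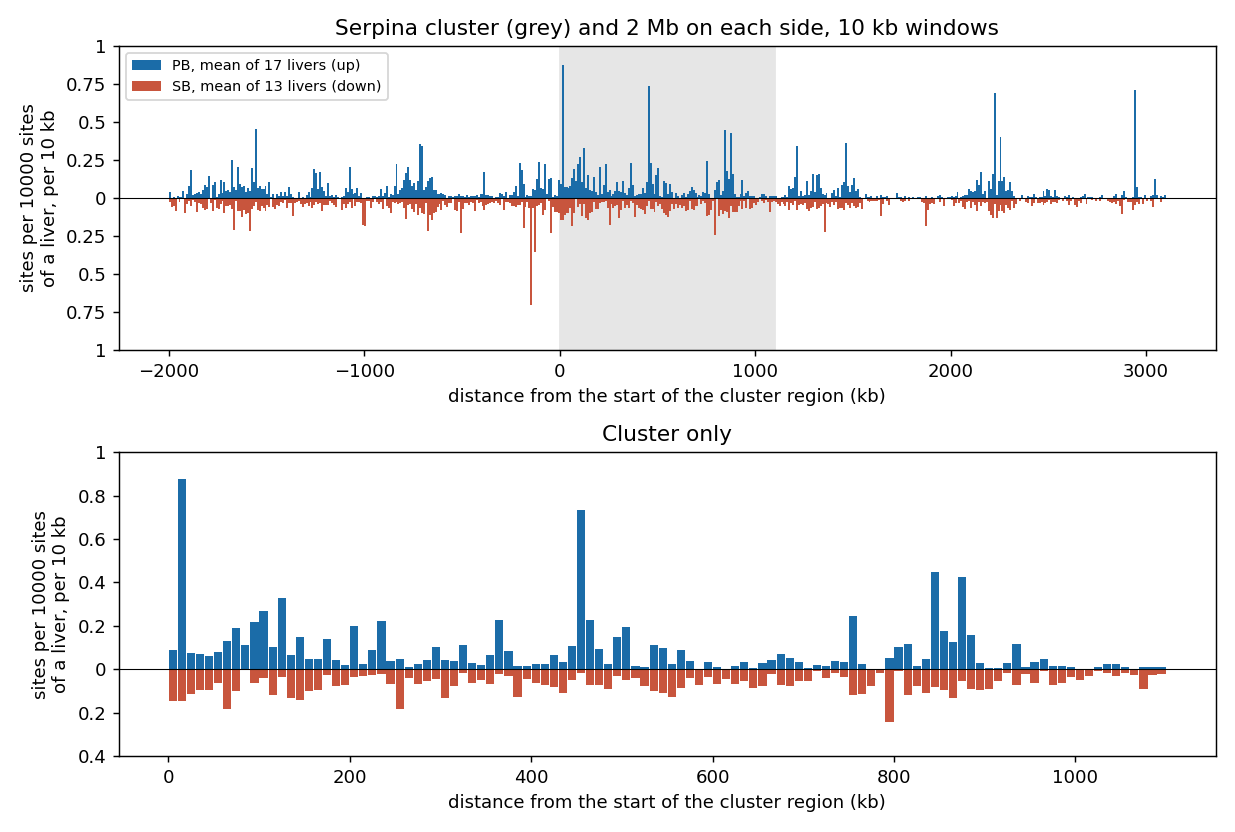
Mean site density per 10 kb window, in sites per 10000 sites of a liver (y axis, PB upwards in blue, SB downwards in red), against distance from the start of the cluster region in kb; the upper panel adds 2 Mb on each side of the cluster (grey) and the lower panel shows the cluster alone. The PB peaks, at 10 and 450 kb, reach 0.88 and 0.73. In PB livers 1 to 12 alone the mean at 450 kb is 0.32, below the 0.46 of the window at 840 kb. No SB window of the cluster passes 0.24, a value that is 0.14 without SB liver 4. The highest SB bar of the flanks, at 0.71, comes from 13 sites, 4 of them in SB liver 13. A bar is a mean of liver shares, so a site of SB liver 13, which listed 4893 in all, weighs most.

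By 100 kb, all 11 windows of the cluster passed the filter, and 3 were higher in PB and 4 in SB by edgeR's quasi-likelihood test at an adjusted p under 0.05. Over the genome 11.6% of 20887 windows were higher in PB and 16.9% higher in SB, and the 36 tested flank windows gave 5 and 9. With TMM scaling the cluster gave 3 and 1 against 11.7 and 12.5%. The median log2 difference was -0.05 in the cluster and -0.35 over all windows. Without reused positions, none of the 11 was called in either direction by edgeR, against 2.58 and 1.57% of the genome; 3 of the 11 had an unadjusted p under 0.05.

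The first 100 kb of the cluster, chr12:103500001-103600000, were the densest in PB. They held 1 to 27 sites in a PB liver (median 14) and 0 to 13 in an SB liver (median 8), or 1.91 ± 0.74 and 1.01 ± 0.45 per 10000. The log2 difference was 0.87 (SE 0.17, edgeR adjusted p = 1.2e-05). The 100 kb from 104.3 Mb held 2 to 27 PB sites (median 11) and 0 to 13 SB sites (median 7), a log2 difference of 0.80 (edgeR adjusted p = 0.00032). From 103.9 Mb there were 139 PB and 71 SB sites, a log2 difference of 0.59 (edgeR adjusted p = 0.025). This last call was lost in livers 1 to 12 alone (0.38, adjusted p = 0.19), with liver number as a block (0.41, adjusted p = 0.18), with sites within 10 bp merged (adjusted p = 0.094) and at a support of at least 10 (adjusted p = 0.058). It was also lost without any of PB liver 17 and SB livers 2, 10 and 12 (0.49 to 0.53), and it turned to -0.39 without reused positions.

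At the far end of the cluster, 4 windows were called higher in SB. From 104.1 Mb there were 34 PB sites in 15 of 17 livers and 64 SB sites in 12 of 13 livers, a log2 difference of -1.23 (edgeR adjusted p = 0.00066). From 104.5 Mb, 15 PB sites fell in 9 livers and 27 SB sites in 12, a log2 difference of -1.14 (edgeR adjusted p = 0.04). The windows from 104.2 and 104.4 Mb stood at -0.69 (adjusted p = 0.04) and -0.91 (adjusted p = 0.026). The call from 104.1 Mb held in each of 30 fits that left out 1 liver (highest adjusted p = 0.012) and was lost without reused positions (adjusted p = 0.14).

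The other 3 calls were near the threshold. From 104.5 Mb the call was lost with the block (adjusted p = 0.076), in livers 1 to 12 (0.07), with TMM (0.062), at a support of at least 10 (0.085), with no filter (0.05) and in 11 of 30 fits without 1 liver (PB livers 1, 2, 3, 11, 12 and 15 and SB livers 2, 4, 6, 10 and 12), with the highest adjusted p, 0.099, without SB liver 4. From 104.2 Mb it was lost with TMM (0.085), limma-voom (0.16), merging within 10 bp (0.15), a support of at least 10 (0.087) and in 11 of the 30 (PB livers 1, 5, 9, 10, 11 and 12 and SB livers 1, 4, 5, 6 and 11), and it stood at -0.48 (adjusted p = 0.2) without SB liver 6. From 104.4 Mb it was lost with TMM (0.051), limma-voom (0.058) and without SB liver 7 (0.071) or 9 (0.057). The other 4 windows, chr12:103600001-103900000 and chr12:104000001-104100000, did not pass.

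At 10 kb, 48 of the 110 windows passed the filter of 0.5 sites per liver on average, of which 12 were higher in PB and 4 higher in SB by edgeR. The genome gave 25.1% and 3.43% of 39563 windows, and the flanks 22 and 2 of 85, so the PB share of the cluster was near the background. A filter on the mean keeps windows where PB piles up, and the median log2 difference over all tested windows was 0.54. With no filter, 11 and 7 of 110 were called against 2.76 and 1.76% of the genome, where the median was -0.26. TMM scaling gave 10 and 6 against 16.8 and 4.58%.

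The window chr12:103510001-103520000 had most PB sites. A PB liver held 0 to 13 of them (median 8) and an SB liver 0 to 4 (median 1), which makes 115 PB sites in 16 of 17 livers against 16 SB sites in 8 of 13. PB liver 16, the shallowest with 16364 sites in all, had none. The share was 0.88 ± 0.46 per 10000 in PB and 0.15 ± 0.15 in SB, a log2 difference of 2.36 (SE 0.30, edgeR adjusted p = 1.2e-12). Within it, the single kb with most PB sites, chr12:103517001-103518000, took 59 of them, or 51.3%, at 11 positions in 15 livers. Of these 59, 30 were on the plus strand. SB put 2 sites there. The kb was picked on these PB counts, so its share and its contrast with SB are descriptions. Without reused positions, the window's log2 difference was 0.12 (adjusted p = 0.93).

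The window chr12:103950001-103960000 had the widest contrast, 55 PB sites against 2 SB sites. A PB liver held 0 to 7 (median 3), and 16 of 17 had at least 1, while 2 SB livers had 1 each. The log2 difference was 3.60 (SE 0.53, 12.1-fold, edgeR adjusted p = 1e-09). PB livers were not alike here. Livers 1 to 12 ran from 0 to 0.59 per 10000 with a mean of 0.32 ± 0.17 (SD, n = 12), and livers 13 to 17 from 0.36 to 3.67 with a mean of 1.73 ± 1.51 (SD, n = 5). PB livers 15, 16 and 17, with 5, 6 and 5 sites, lay above every liver of the first 12. In livers 1 to 12 alone the log2 difference was 3.28 (adjusted p = 2.1e-06). The 55 PB sites lay at 17 positions. Without reused positions the window was under the filter, so its contrast was not tested that way.

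The 18 sites of PB livers 13 to 17 in that window fell on 8 positions, 7 of which also had a site in livers 1 to 12. They carried a support of 3 to 208, so some of them were at the lowest value listed. In PB livers 15, 16 and 17, 1 site each was on the plus strand.

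A further 3 windows of PB excess stood at log2 2.38 to 2.63. In chr12:103620001-103630000 a PB liver held 0 to 8 sites (median 2), 43 in all, against 4 SB sites in 3 livers (log2 2.63, edgeR adjusted p = 6e-06). In chr12:104340001-104350000 there were 0 to 9 per PB liver (median 3), 58 in all, against 7 SB sites (log2 2.42, edgeR adjusted p = 5.9e-07). In chr12:103730001-103740000 there were 0 to 4 per PB liver (median 2), 29 in all, against 3 SB sites (log2 2.38, edgeR adjusted p = 0.00041). The window from 104.34 Mb was the 1 window of 26 tested that was called without reused positions, at 1.88 (edgeR adjusted p = 0.038), against 3.18% of the genome higher in PB and 0.476% higher in SB. The windows from 103.62 and 103.73 Mb were under the filter without reused positions and were not tested that way.

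**Figure D3:**
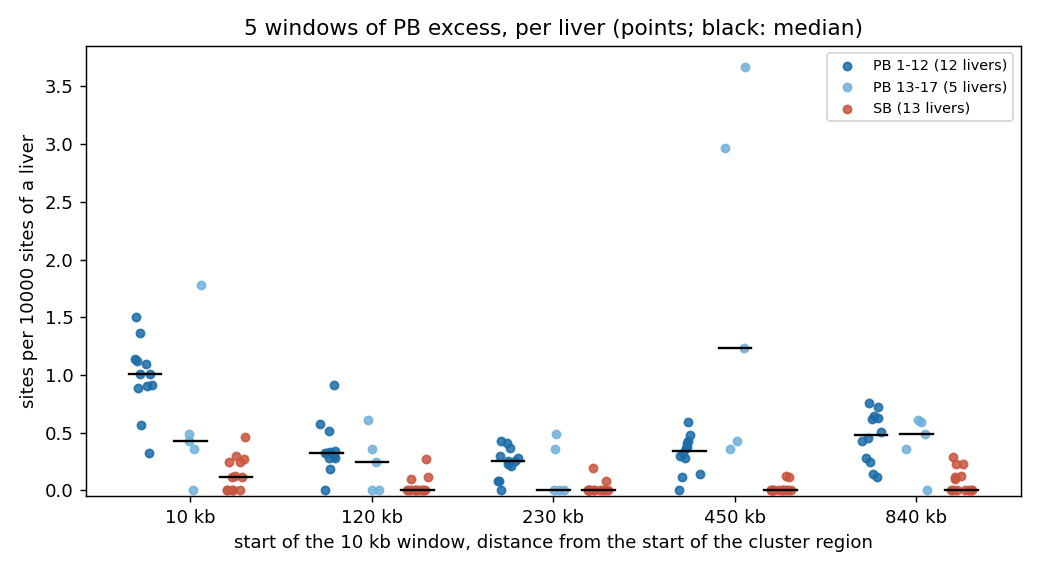
Share of a liver's sites, per 10000 (y axis), in the 5 windows of largest PB excess, placed by distance from the start of the cluster region (x axis, kb); points are livers of PB 1 to 12 (dark blue), PB 13 to 17 (light blue) and SB (red), and black bars are medians. In the window at 450 kb the PB 13 to 17 points reach 3.67 while PB 1 to 12 stay at or below 0.59, and in the window at 10 kb the medians are 1.01, 0.43 and 0.12.

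SB excess was thinner per window. In chr12:103750001-103760000 an SB liver held 0 to 4 sites (median 1), 18 in 7 livers, against 3 PB sites in 3 livers (log2 -2.31, edgeR adjusted p = 0.00091). In chr12:103880001-103890000 there were 13 SB sites in 9 livers against 2 PB sites, both in 1 liver (log2 -2.20, edgeR adjusted p = 0.0035). In chr12:104290001-104300000 there were 20 SB sites in 8 livers against 7 PB sites, each in a liver of its own (log2 -1.63, edgeR adjusted p = 0.01). SB liver 4 held 5 of the 20, at 1.43 per 10000 against at most 0.41 in any other SB liver. Without it the SB mean fell from 0.24 to 0.14 per 10000, and the log2 difference was -1.29 (adjusted p = 0.066).

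In chr12:103930001-103940000 there were 12 SB and 4 PB sites (log2 -1.52, edgeR adjusted p = 0.039). SB liver 1 held 6 of the 12 and SB liver 7 held 3, and without either liver the window was under the filter. Its call was lost with the block (adjusted p = 0.24), with no filter (adjusted p = 0.11) and without any 1 of PB livers 1, 2, 5 to 10 and SB liver 4 (adjusted p of 0.05 to 0.061). With limma-voom, the window from 103.88 Mb alone kept its call (adjusted p = 0.048). That window kept its call in 20 of the 30 fits that left out 1 liver and was under the filter in the others. The windows from 103.88 and 103.93 Mb were both under the filter without reused positions. The same held at a support of at least 10 and with sites within 10 bp merged. The window from 103.56 Mb, dense in SB with 17 sites, held 17 PB sites too (log2 -0.34, edgeR adjusted p = 0.61).

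The cluster's share in the PB livers numbered above 12 was not called different from that in the first 12. The means were 10.5 ± 1.86 per 10000 (SD, n = 5) against 9.02 ± 1.42 (SD, n = 12), a log2 difference of 0.24 that did not pass (exact permutation test, p = 0.086, adjusted p = 0.16). Without PB liver 13, at 7.27, the value was 0.36 (adjusted p = 0.012). The ratio to the flanks was 2.06 ± 0.48 against 1.76 ± 0.36 (log2 0.23, exact permutation test, p = 0.18, adjusted p = 0.25), and 0.52 (adjusted p = 0.037) with flanks of 1 Mb. Leaving out the window from 103.95 Mb alone, chosen after its values were seen, put the shares at 8.79 ± 1.48 and 8.70 ± 1.42, a log2 difference of 0.04 (exact permutation test, p = 0.72, unadjusted).

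Empty stretches were short, and no 10 kb window of the cluster lacked sites of both transposons. PB left 7 of the 110 windows empty and SB left 1, against 16 and 0 of 200 in the lower flank and 58 and 31 of 200 in the upper flank. Both were empty in 14 windows of the upper flank. The 1 window without SB sites, from 103.58 Mb, held 14 PB sites. The 7 without PB sites lay from 104.08 Mb onwards and held 2 to 8 SB sites each, among them the neighbours from 104.27 and 104.28 Mb and from 104.5 and 104.51 Mb.

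Measured between neighbouring positions, the longest PB gap in the cluster was 31269 bp, chr12:104492778-104524047, and held 9 SB sites. The next, chr12:104075524-104096748 and chr12:104269865-104290543, spanned 21224 and 20678 bp and held 12 SB sites each. The gap from 104075524 lay in a 100 kb window with no call, and the others in windows called higher in SB. The longest SB gap was 10927 bp, chr12:104228118-104239045, with 3 PB sites inside. SB gaps of 10734 bp, chr12:103822596-103833330, and 10387 bp, chr12:103579936-103590323, held 17 and 15 PB sites.

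With both transposons combined the longest gap was 7881 bp, chr12:104510553-104518434. No combined gap passed 10 kb in the cluster, against 1 in the lower and 24 in the upper flank, where the longest was 36981 bp. Gaps over 10 kb made up 15.9% of the cluster for PB and 3.85% for SB, 22.5 and 9.33% of the lower flank, and 51.9 and 31.4% of the upper flank. These lengths depend on the number of positions, which per Mb was 630 for PB and 657 for SB in the cluster and 318 and 324 in the upper flank. Where each gene copy lies among these gaps was not analysed here.

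SB sites in the cluster lay more often on the plus strand. Over the 12 SB livers with at least 20 cluster sites, the plus share ran from 46.9 to 62.9% with a median of 55.1%, a mean of 55.1 ± 5.0% (SD). In the flanks of the same livers it was 46.8 ± 5.3% and in the rest of the genome 48.9 ± 0.4%. The cluster lay above the flanks in 11 of 12 livers, by 8.28 percentage points on average (sign-flip permutation test, p = 0.0073, adjusted p = 0.027), and above 50% in 10 of 12. Pooled, 413 SB sites were on the plus and 341 on the minus strand. The pooled share came to 54.8%.

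For PB no strand difference between cluster and flanks passed the test. Over 15 PB livers the plus share ran from 42.0 to 55.3% with a median of 49.2%, a mean of 48.1 ± 4.6% in the cluster against 48.2 ± 5.5% in the flanks and 49.1 ± 0.4% elsewhere. The difference from the flanks was -0.07 points (permutation test, p = 0.97, adjusted p = 0.97). PB minus SB was -6.93 points in the cluster (permutation test, p = 0.00092, adjusted p = 0.0051), with ranges that overlapped. Without reused positions the differences were -6.14 points between the groups (adjusted p = 0.14) and 7.18 points between SB cluster and flanks (adjusted p = 0.071). Whether the plus strand follows the direction of the genes was not analysed here.

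The SB strand split varied along the cluster and was not tested by window. The plus strand had more SB sites than the minus strand in 7 of the 11 windows of 100 kb and fewer in 4. The share was highest in chr12:104300001-104400000, with 53 plus and 33 minus sites, and lowest in chr12:104100001-104200000, with 28 plus and 36 minus sites. In the other 3 windows with fewer plus sites the strands differed by 1 site.

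**Figure D4:**
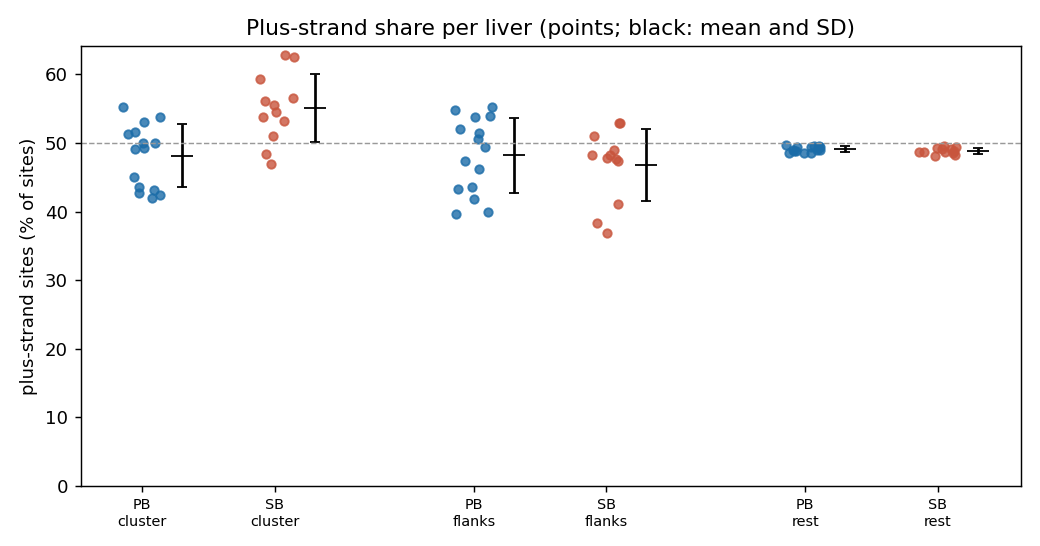
Share of sites on the plus strand (y axis, percent) in the cluster, its flanks and the rest of the genome, for livers with at least 20 cluster sites (15 PB in blue, 12 SB in red); black marks show the mean and SD, and the dashed line is at 50%. SB livers average 55.1% in the cluster against 46.8% in the flanks, while PB livers average 48.1 and 48.2%.

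The same PB positions were used in different livers more often in the cluster than elsewhere. Of a PB liver's cluster sites, 32.8 to 75.0% (median 44.7%) lay at a position and strand that another PB liver also had, a mean of 45.9 ± 11.5% (SD, n = 17). The flanks gave 32.2 ± 4.4% and the rest of the genome 29.3 ± 1.4%. The cluster lay above the rest in 17 of 17 livers and above the flanks in 15 of 17. Each coincidence counts in both livers, so the livers' values depend on each other and no test was made. Mean PB sites per Mb, scaled per liver as above, were 8.60 in the cluster, 5.68 in the lower flank and 3.78 in the upper flank. Stretches of equal site density were not compared, so whether reuse in the cluster exceeds what its density alone would give was not tested. For SB the shares were 3.40 ± 2.21% in the cluster (SD, n = 12), 4.0 ± 2.0% in the flanks and 2.13 ± 0.15% elsewhere, and the cluster lay above the rest in 7 of 12 livers.

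**Figure D5:**
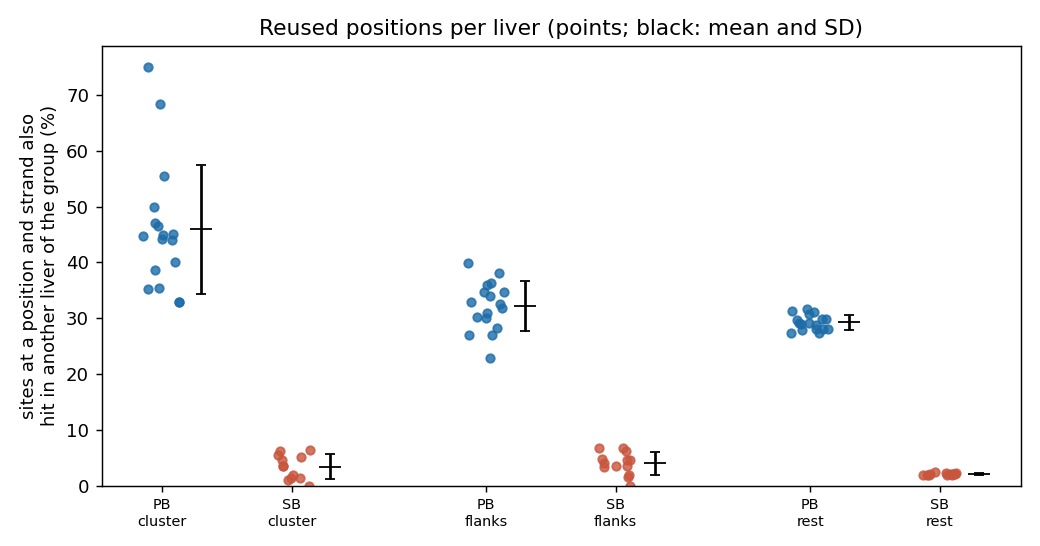
Share of a liver's sites at a position and strand that another liver of its group also had (y axis, percent) in the cluster, its flanks and the rest of the genome, for PB (blue) and SB (red); black marks show the mean and SD. All 17 PB points of the cluster lie at or above 32.8%, against a mean of 29.3% elsewhere, and SB points of the cluster stay at or below 6.45%.

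Pairs of PB livers shared 0 to 14 cluster positions on the same strand, with a median of 4 over 136 pairs, and 12 pairs shared none. The pair with most, PB livers 3 and 11, had 14 in common, 11.8% of the sites of the former and 14% of those of the latter. Of 78 SB pairs, 66 shared none and the other 12 shared 1 each. Within each liver, support was compared at sites whose position and strand another liver had, and at those of 1 liver. The liver medians averaged 70.1 ± 32.3 and 69.6 ± 35.4 in PB (SD, n = 17). In SB they averaged 50.3 ± 19.1 over 11 livers, from 24 shared sites, and 50.5 ± 15.6 over 12 livers. Pooled over livers of different depth, the medians were 52 and 49 in PB and 53.5 and 45 in SB.

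Regardless of strand, PB used 693 positions in the cluster, and 200 of them, or 28.9%, were found in at least 2 livers, against 20.02% in the flanks and 16.9% elsewhere. At least 5 livers shared 26 positions, or 3.75%, against 2.46 and 2.04%. The most shared had 10 livers. Sites lay on both strands at 128 of the 200 and at 23 of the 26. SB used 723 positions, of which 27 were in 2 livers and none in more, and sites lay on both strands at 15 of those 27.

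Position chr12:103517435-103517438, inside the densest kb, was found in 10 of 17 PB livers, with 8 sites on each strand. Position chr12:104370546-104370549 was also found in 10 livers, with 6 plus and 7 minus sites. A further 3 positions among the top 5, chr12:103517201-103517204, chr12:103626940-103626943 and chr12:103955670-103955673, were each found in 8 livers. Support over the sites of these 5 ran from 3 to 218, with medians of 44 to 68. The 26 positions shared by at least 5 livers were grouped as well, 8 of them in the window from 103.51 Mb and 5 in that from 103.95 Mb. SB positions of 2 livers, such as chr12:103509621-103509622 in SB livers 2 and 12, had no such grouping tested.

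Among 693 PB and 723 SB positions, both transposons met at 4 places, where an SB position lay in the middle of a 4-base PB position. These were chr12:103515395-103515398, chr12:103613395-103613398, chr12:103955367-103955370 and chr12:104344731-104344734. The last had 2 PB livers, and the others had 1 PB and 1 SB liver each. How often this happened in the flanks or the rest of the genome was not counted.

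The support of cluster sites gave no difference from sites elsewhere that passed the test. The median support in the cluster was 64.2 ± 28.9 over 15 PB livers against 63.5 ± 30.5 in the rest of the genome, a log2 ratio of 0.02 ± 0.12 (SD; permutation test, p = 0.46, adjusted p = 0.51). In 12 SB livers it was 50.2 ± 14.8 against 52.5 ± 14.1, a log2 ratio of -0.07 ± 0.15 (SD; permutation test, p = 0.11, adjusted p = 0.17). The best-supported PB site of the cluster, chr12:103930477-103930480 on the minus strand of PB liver 3, had a support of 288 and ranked 406 among the liver's 109000 sites. The best-supported SB site, chr12:104578200-104578201 on the plus strand of SB liver 4, had 296 and ranked 46 of 34929.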

How the data were processed

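Genomic DNA of 30 livers was sequenced from transposon ends. Per the submitters' processing notes, cutadapt, BWA and the build GRCm39 were used; versions and the handling of reads with several places are not given in the sources used here. Each deposited liver table lists sites with their strand and a whole number in 1 shared field. The deposited merged tables of livers 1 to 12 hold counts per position, made by the authors, and equalled the liver tables at all 643 PB and 723 SB cluster positions. The 30 mitochondrial records were left out. No listed site has a support under 3.

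Sites per 1.1 Mb tile, 100 kb and 10 kb window were tested over the whole genome with edgeR 4.0.16 (quasi-likelihood, library size the nuclear sites of a liver, Benjamini-Hochberg). Windows under a mean of 0.5 sites (10 kb) or 1 site (others) were left out. Limma 3.58.1 (voom) was an alternative. Simulated data had 100 windows changed 2-fold and 100 changed 4-fold at each scale, with a fixed dispersion. The fit recovered 98% of 2-fold and 100% of 4-fold changes over 2358 tiles. Over 20887 windows of 100 kb it recovered 24 and 90%, and over 39563 windows of 10 kb 1 and 10%. In the data, 25.1 and 3.43% of the 10 kb windows were called, so these rates need not apply there. A 10 kb window that did not pass was not taken as unchanged. Permutation tests over livers used scipy 1.17.1, 100000 resamples or all, two-sided, in a family of 11. Windows, positions and gaps are named by rank: 5 largest called excesses per group, 3 densest windows, 5 positions in most livers, 3 longest gaps and the best-supported site. The members and lists were chosen with earlier results of these data known. The liver numbers of PB and SB were not taken to pair. Deviations of 13 same-numbered pairs correlated at 0.02 to 0.21, and 8 exceeded 0.1. Only 1 PB liver correlated best with the SB liver of its own number. Promoters came from RefSeq (GRCm38.p6); TTAA is its own reverse complement, so 1 strand covers both.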

Additional observations from a re-analysis of the deposited data

Results flagged for a closer look

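The cluster share of PB liver 13, 7.27 per 10000, lay far below those of PB livers 14 to 17, and its gap to the nearest was large for the range of those 5 livers. In all, 3 groups of livers were examined in this way, and chance marks about 1 in 20. With and without this liver, the comparison of PB livers 13 to 17 with 1 to 12 stood at 0.24 and 0.36 on the log2 scale.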

How the results depend on the processing

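Leaving out reused positions moved most values: the PB to SB share turned to -0.23 (edgeR) and -0.051 (permutation), PB livers 13 to 17 against 1 to 12 to -0.030 for the share and -0.12 for the ratio to the flanks, the strand differences fell short at -6.14 and 7.18 points, and the called windows fell to 1 higher in PB and 0 in SB of 26 tested at 10 kb and to 0 and 0 at 100 kb (edgeR alone was run here; 4 of 26 and 3 of 11 windows had an unadjusted p under 0.05). The windows from 103.56 Mb (10 kb, 0.12) and from 103.6 and 103.9 Mb (100 kb, -0.36 and -0.39) changed sign with it, and the 100 kb from 103.8 Mb did so with TMM scaling (0.0055). Livers 1 to 12 alone gave a share difference of 0.18 (edgeR) and 0.17 (permutation), and leaving out SB liver 13 gave 0.24. The SB excess over the flanks rose to 0.66 in livers 1 to 12 and without SB liver 13, to 0.65 with no pseudocount and to 0.72 against the rest of chromosome 12. The PB to SB difference of that excess was 0.66 with 1 Mb flanks and 0.53 against the rest of chromosome 12, and that of PB livers 13 to 17 over 1 to 12 was 0.52 with 1 Mb flanks. Windows of 10 kb higher in SB numbered 1 of 48 (limma-voom) and 7 of 110 (no filter), against 0.566 and 1.76% of the genome. At 100 kb they numbered 2 (support of at least 10), 1 (TMM) and 2 (limma-voom) of 11, against 16.8, 12.5 and 14.5%. SB left 3 windows empty at a support of at least 10. On either strand, 58.7% of PB and 7.31% of SB sites were reused. Leaving out 1 of PB livers 13 to 17 at a time gave 0.19 to 0.36 for the share, past the threshold without liver 13, and 0.16 to 0.35 for the ratio.

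With the liver number as a replicate block, over 13 pairs, the share difference was 0.17 (edgeR, adjusted p = 0.045) and 0.37 (permutation, adjusted p = 0.17), the difference over the flanks 0.40 (adjusted p = 0.19) and, over 12 pairs, the strand difference -6.55 points (adjusted p = 0.04). The block fit drops PB livers 14 to 17. It gave 10 and 3 called windows of 54 at 10 kb, higher in PB and in SB, against 15.4 and 1.32% of the genome. At 100 kb it gave 2 and 3 of 11, against 10.2 and 10.9%.

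Of 240 tested values under the alternatives other than single-liver omissions, 187 kept their direction and side of the threshold, 36 lost and 9 gained a call, and 8 changed sign. Of 70 counts and untested values, 49 stayed within 1.5 times or 1 SD of the reported value and 21 moved further. Leaving out each of the 30 livers in turn put the share difference at 0.16 to 0.24 (edgeR), past the threshold except without SB liver 8. In a shallow liver, a 10 kb window rests on a handful of sites, and a site under a support of 3 is not listed, so absence below that is not measured.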
